A study of Rattus norvegicus with 16 samples.

Results

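The ventral prostate of control rat offspring was compared between postnatal day (PND) 540 and PND21. All samples labelled as control at either age were taken, 9 of the 16 in the series: 4 at PND21 and 5 at PND540. The dams of these animals had received a normal diet with 17% protein in gestation (CTR). The other samples, 3 at PND21 and 4 at PND540, are offspring of dams kept on 6% protein through gestation and lactation (GLLP) and serve below as a second set of libraries under the same age contrast. The glands were snap-frozen, total RNA was extracted with Trizol, and a sequencing company made Illumina libraries from it. The labels give no strain, no litter and no pooling, so the p-values reflect variation among these libraries only, which may be technical.

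The ventral lobe is the largest lobe of the rat prostate and depends on androgens for its growth and its secretion. Epithelial ducts branch and lengthen within a fibromuscular stroma before puberty, and the luminal cells take on bulk secretion of small proteins once testosterone rises. In old rats the lobe is known for regression of parts of the epithelium and for infiltrates of leukocytes.

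The counts of the ages come from separate tables with different gene annotations, so age and table cannot be told apart. The comparison used the 19709 gene names that both tables hold, and 13510 of them passed a filter on low counts. Of these, 11360 had a mean of at least 1 CPM (counts scaled to a common library size) at both ages; 260 lay near 0 (a mean under 0.1 CPM) at 1 age with at least 1 CPM at the other; and 1890 lay between these limits. Totals ran from 28748604 to 37587255 counts per library over all 9, and the shared names held 82.5% to 86.6% of them at PND21 and 86.4% to 92.0% at PND540. No gene with a mitochondrial name was shared. Replicate 5 at PND540 stood apart: its median correlation with the other 4 libraries of its group was 0.811, where pairs among those 4 lay between 0.953 and 0.982, and it lay outside their range for 80.8% of the 11360 genes. Values without it are therefore given where it moves a count or a fold strongly.

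The defining markers of a prostate were present. All 9 luminal markers (among them Krt8, Epcam, Hoxb13 and Pbsn), all 4 basal, all 5 smooth muscle and all 5 fibroblast markers had means of at least 1 CPM at both ages. Of the seminal vesicle markers Svs2, Svs4 and Svs5 only Svs4 was in both tables, at 0 in each PND21 library and at up to 0.164 CPM at PND540. A longer list of 13 seminal vesicle and dorsolateral prostate genes had 9 in both tables and 3 tested. Among these Pax8 was higher, and Semg1 and Wfdc3 were not called. The part of such tissue in other results was not tested. Of the bladder lining markers, Upk1a ran from 4.59 to 12.5 CPM over the 9 libraries and Upk3a reached at most 0.244 CPM, while Upk1b went from at most 0.717 CPM at PND21 to between 1.37 and 3.33 CPM at PND540. Upk2, near 0 at PND21, ran from 0.532 to 2.54 CPM at PND540. Of 6 tested genes of that lining 4 (Upk2, Krt4, Upk1b and Psca) were higher and none lower. The summed level of the bladder lining markers ran from 9.66 to 12.1 CPM at PND21 and from 7.05 to 16.5 CPM at PND540, and their part in other results was not tested. Of the 4 skeletal muscle markers, Ckm lay between 0.325 and 1.78 CPM, Myh4 between 0 and 3.25 CPM and Mylpf between 2.50 and 11.9 CPM across the 9 libraries. Acta1 was far higher, at 328 to 417 CPM at PND21 and 34.2 to 75.6 CPM at PND540. The summed level of the 4 ran from 336 to 423 CPM at PND21 and from 39.5 to 80.8 CPM at PND540, and their part in other results was not tested.

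Across all genes tested, 2336 (17.3%) were higher and 1781 (13.2%) lower at PND540 (edgeR quasi-likelihood test, Benjamini-Hochberg adjusted p of at most 0.05). Among genes with at least 1 CPM at both ages the counts were 1646 (14.5%) and 1250 (11%), and 38 of the former and 28 of the latter differed by more than 16-fold. The groups did not overlap for 5093 genes, 37.7% of those tested. The median log2 fold change over all genes was 0.07. Without replicate 5, 3490 genes were higher (26%) and 3085 lower (23%) of 13427 tested; these held 2284 of the 2336 higher and all 1781 lower genes of the 9 libraries, and none had turned round. Spread grew with age: the median SD of log2 CPM was 0.13 at PND21 and 0.55 at PND540, or 0.25 without replicate 5, and 83.2% of genes with at least 1 CPM at both ages had the larger SD at PND540 even then.

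**Figure D1:**
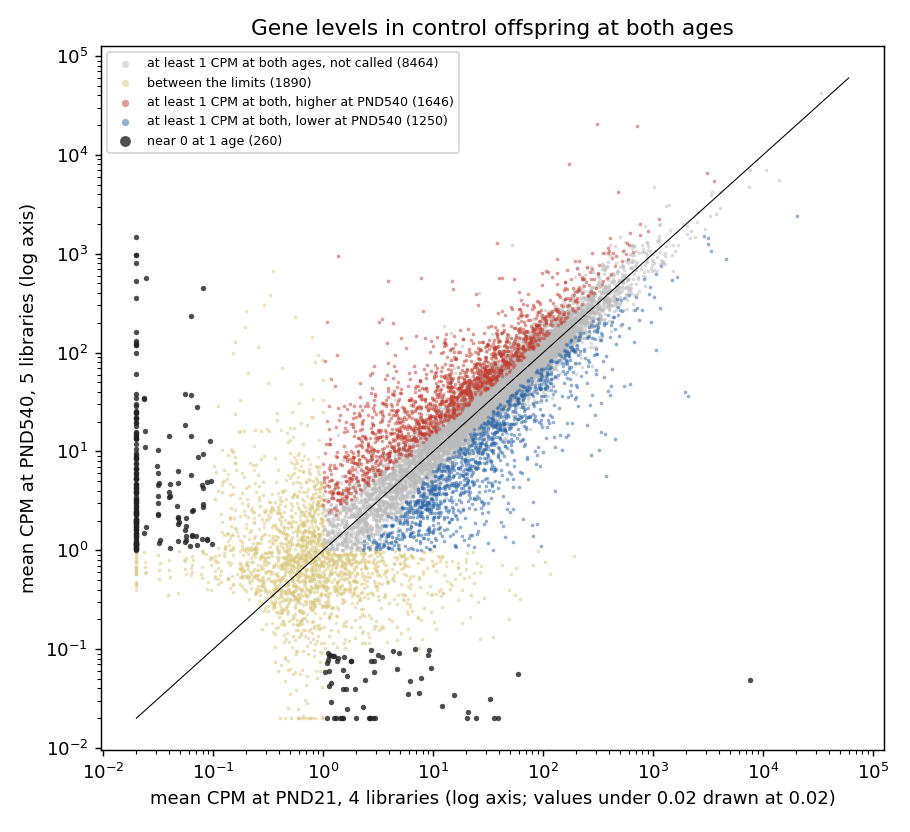
Mean CPM of each tested gene at PND21 (x axis, 4 libraries) against PND540 (y axis, 5 libraries), both on log axes; colours give the call and the level class, and the line marks equal levels. The 260 genes near 0 at 1 age lie along the edges, and the 1646 higher and 1250 lower genes with at least 1 CPM at both ages lie on either side of the line.

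Some genes that 1 of the tables lists near 0 are given here, and others appear with their families. Of the 260 genes near 0 at 1 age, 196 were near 0 at PND21 and 64 at PND540; 195 were called higher, 64 lower and 1 was not called. Fth1, the ferritin heavy chain that stores iron in nearly every cell, had 0 counts in each PND21 library and 1341, 1109.7, 1316, 1102 and 2521 CPM at PND540, at least 15511-fold higher against a floor of 3 counts per library. The ribosomal protein genes Rps29 and Fau had 2 and 1 counts over the 4 PND21 libraries and means of 977 ± 928 and 969 ± 1146 CPM (SD, n = 5) at PND540. Klk1, a tissue kallikrein protease, went the other way, with 946457 counts over the PND21 libraries and 7 over those of PND540. Ferritin and ribosomal proteins are made in the cells of every tissue.

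Genes above 1 CPM at both ages also held large steps with little spread among the young libraries. Rps18, a protein of the small ribosomal subunit, stood at 1.47, 1.32, 1.53 and 1.17 CPM at PND21 and at 825, 693, 771, 774 and 1714 CPM at PND540. Ptma, an abundant nuclear protein gene, read 3.91, 3.90, 3.84 and 3.99 against 477, 405, 451, 601 and 714 CPM, and the cytoplasmic actin gene Actg1 16.3, 11.7, 16.5 and 14.8 against 493, 469.6, 504, 546 and 641 CPM. All 3 lie in the group of more than 16-fold higher genes, with adjusted p of 8.34e-07, 1.86e-07 and 3.96e-07 (edgeR). In the other direction, Chtop, an mRNA export factor, was at 122.99, 126, 125 and 124 CPM at PND21 and at 14.2, 14.5, 13.9, 12.8 and 14.0 CPM at PND540, and Cox20, a cytochrome oxidase assembly factor, at 42.8, 46.3, 48.3 and 42.9 and 1.06, 1.84, 1.26, 0.659 and 2.05 CPM. The rule that named these genes asked for no overlap and a large fold or small p. It thus favours values that differ less within an age than between the ages. The GLLP libraries, counted in the same tables, gave log2 fold changes of 8.31, 6.93, 4.95, -3.22 and -5.41 against 9.44, 7.08, 5.16, -3.16 and -5.04 in CTR. The part of the annotation in these values was not tested. Families are therefore described below by several members, and the few members called against the rest of their family were named after their values were seen.

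Most genes of cell division fell. The mitosis list holds 51 genes, all 48 of them that are in both tables were tested, and 39 were lower and 1 higher at PND540; the median log2 fold change was -3.80 against 0.07 over all genes. Over all genes tested 13.2% were lower. Over the fits that leave out 1 library each, 39 to 43 were lower and 1 or, without replicate 5 at PND540, 2 higher. Limited to the 30 members with at least 1 CPM at both ages, 21 were lower and the median was -2.05.

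Mki67, the proliferation antigen Ki-67, stood at 38.5, 77.4, 57.2 and 89.9 CPM at PND21 and at 3.46, 2.95, 1.93, 1.61 and 0.532 CPM at PND540. Top2a, the topoisomerase that untangles chromosomes before they separate, read 58.0, 103, 79.4 and 111 CPM and then 4.35, 1.41, 1.80, 1.00 and 0.646 CPM. Cdk1, the kinase that starts mitosis, read 21.9, 41.1, 25.0 and 34.1 CPM and then 3.42, 2.17, 1.6, 1.75 and 1.06 CPM. In all 3 genes every young library was above every old one; replicate 1 was the lowest at PND21 and replicate 5 the lowest at PND540. Mki67 fell 31.4-fold (log2 fold change -4.97, SE 0.50, adjusted p = 8.4e-05), Top2a 47.9-fold (log2 fold change -5.58, SE 0.55, adjusted p = 6.7e-05) and Cdk1 15.3-fold (log2 fold change -3.93, SE 0.36, adjusted p = 4.45e-05; all edgeR). Prc1, which bundles the midzone of the spindle, fell 24.6-fold from 43.4 ± 10.4 (SD, n = 4) to 1.76 ± 0.602 CPM (SD, n = 5), and Kif22, a chromosome-arm motor, 21.7-fold from 23.7 ± 7.19 to 1.09 ± 0.121 CPM. Kif2c, a microtubule-depolymerising motor of the centromere that was named after its values were seen, was the 1 member that rose, from 25.2, 37.4, 30.8 and 29.2 to 87.9, 59.6, 76.2, 44.5 and 58.7 CPM, by 1.09 on the log2 scale (adjusted p = 0.00472, edgeR).

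Many division genes carry promoter letters that the choice of list did not use, and 3 of their promoters are printed to show them beside an S-phase gene. Each line gives the 150 bases before the RefSeq gene start in the assembly GRCr8, 5′ to 3′ on the gene's own strand; capitals mark the CCAAT box (CCAAT, read on either strand, so also ATTGG), the cell cycle homology region (TTTGAA or TTCAAA) and, in Mcm5, only the letters of an E2F site (TTTNNCGC). Coordinates are of GRCr8, not of the build named in the processing notes. Every promoter printed holds its letters, but not every gene looked at did. In the same 150 bases Bub1b held neither a CCAAT box nor the cell cycle homology letters. Tk1, an S-phase gene, held neither the E2F letters nor a CCAAT box there.
Top2a, chr10:84473094-84473243, minus strand: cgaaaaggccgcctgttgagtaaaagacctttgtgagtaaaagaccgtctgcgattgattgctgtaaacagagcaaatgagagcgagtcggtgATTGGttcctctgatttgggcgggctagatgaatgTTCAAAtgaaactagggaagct
Cdk1, chr20:19265143-19265292, plus strand: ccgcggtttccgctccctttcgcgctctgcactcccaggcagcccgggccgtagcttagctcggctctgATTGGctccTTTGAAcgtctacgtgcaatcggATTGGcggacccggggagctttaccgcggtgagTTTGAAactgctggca
Prc1, chr1:143659331-143659480, plus strand: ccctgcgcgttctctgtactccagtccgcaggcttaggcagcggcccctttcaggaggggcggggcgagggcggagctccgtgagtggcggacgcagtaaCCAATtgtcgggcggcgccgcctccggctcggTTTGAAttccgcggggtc
Mcm5, chr19:13488663-13488812, plus strand: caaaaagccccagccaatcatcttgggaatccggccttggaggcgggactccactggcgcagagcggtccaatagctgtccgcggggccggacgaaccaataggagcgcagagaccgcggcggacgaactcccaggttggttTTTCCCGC

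Within the 250 bases before the start, CCAAT was present on either strand in 27 of the 35 mitosis genes with a promoter in the table (77.1%), against 34.4% of all 24206 rat promoters of that length. The TTTGAA element was present in 12 of the 35 (34.3%), against 16.1% of all. Of the 39 mitosis genes called lower, 31 had a promoter, and CCAAT stood in 24 of these (77.4%). For the replication genes the E2F letters TTTNNCGC stood in 9 of 36 promoters (25%), against 4.45% of all. These shares describe letters in a window and say nothing of which factor acts there. The motifs were counted separately and may share bases.

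Most S-phase genes fell too, with a smaller median. Of 44 replication genes, all tested, 31 were lower and none higher, with a median log2 fold change of -1.45; leaving out 1 library at a time gave 27 to 36 lower and, without replicate 5 at PND540, 1 higher. Mcm5, a subunit of the replicative helicase, stood at 25.8, 45, 38.6 and 33 CPM at PND21 and at 6.26, 5.48, 8.42, 6.25 and 7.14 CPM at PND540, a 5.30-fold fall (log2 fold change -2.41, SE 0.22, adjusted p = 3.85e-05, edgeR). Pcna, the sliding clamp of the polymerases, went from 86.6, 137, 102 and 109 to 48.6, 34.5, 44.3, 48.9 and 47.6 CPM, a 2.42-fold fall (log2 fold change -1.28, SE 0.18, adjusted p = 0.000552). Neither gene's groups overlapped, and both kept a level well above 1 CPM in the old gland, where Rrm2, a subunit of ribonucleotide reductase, was at 2.52, 1.41, 1.63, 0.430 and 0.0759 CPM after 34.1, 65.9, 41.7 and 71.8 CPM. Uhrf1, which guides maintenance methylation to new DNA, fell 26.6-fold from 31.6 ± 8.82 to 1.18 ± 0.415 CPM, and its partner methyltransferase Dnmt1 1.77-fold, from 63.8 ± 8.47 to 36.0 ± 4.80 CPM. Of 36 tested repair genes 14 were lower and none higher (17 and 1 without replicate 5), among them Fanci (6.59-fold lower, from 16.8 ± 2.56 to 2.54 ± 0.487 CPM) and Bard1 (34.4-fold lower, from 7.32 ± 2.65 to 0.207 ± 0.143 CPM), which act in the repair of crosslinks and breaks.

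Single inhibitors of the cell cycle were called in both directions. Of 30 tested inhibitors and p53 targets, 8 were higher and 2 lower, beside 17.3% and 13.2% of all genes. Leaving out 1 library gave 4 to 11 higher (4 without replicate 1, 2 or 4 at PND21, 5 without replicate 3 at PND21 or replicate 3 or 4 at PND540). It gave 1 to 6 lower (1 without replicate 2 or 3 at PND21, 4 without replicate 4 at PND540). Without replicate 5 at PND540 it was 11 and 6, beside 26% and 23% of all genes. Cdkn2b (p15), which blocks the G1 cyclin D kinases, rose from 8.87, 7.96, 7.40 and 7.24 CPM to 37.7, 28.6, 26.6, 48.0 and 28.4 CPM, 4.30-fold (log2 fold change 2.11, SE 0.23, adjusted p = 0.000108, edgeR). Its neighbour Cdkn2a, which encodes p16 and the Arf protein and is a common marker of senescent cells, was near 0 at PND21, with 7 counts over the 4 PND21 libraries and 1.54, 0.722, 1.06, 1.12 and 1.94 CPM at PND540 (log2 fold change 4.41, adjusted p = 0.00319; 6.44 without replicate 4 at PND21, which held 6 of the 7 counts). Both were higher in every old library than in any young one. Cdkn1a (p21) was not called, at 12.1, 38.9, 37.3 and 57.6 CPM and 24.6, 20.4, 23.8, 19.3 and 52.8 CPM, and its groups overlapped. Zmat3, a p53 target, rose 3.85-fold from 10.8 ± 2.78 to 41.4 ± 7.68 CPM, while Cdkn2c (p18) fell 8.23-fold from 10.6 ± 2.61 to 1.28 ± 0.443 CPM.

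**Figure D2:**
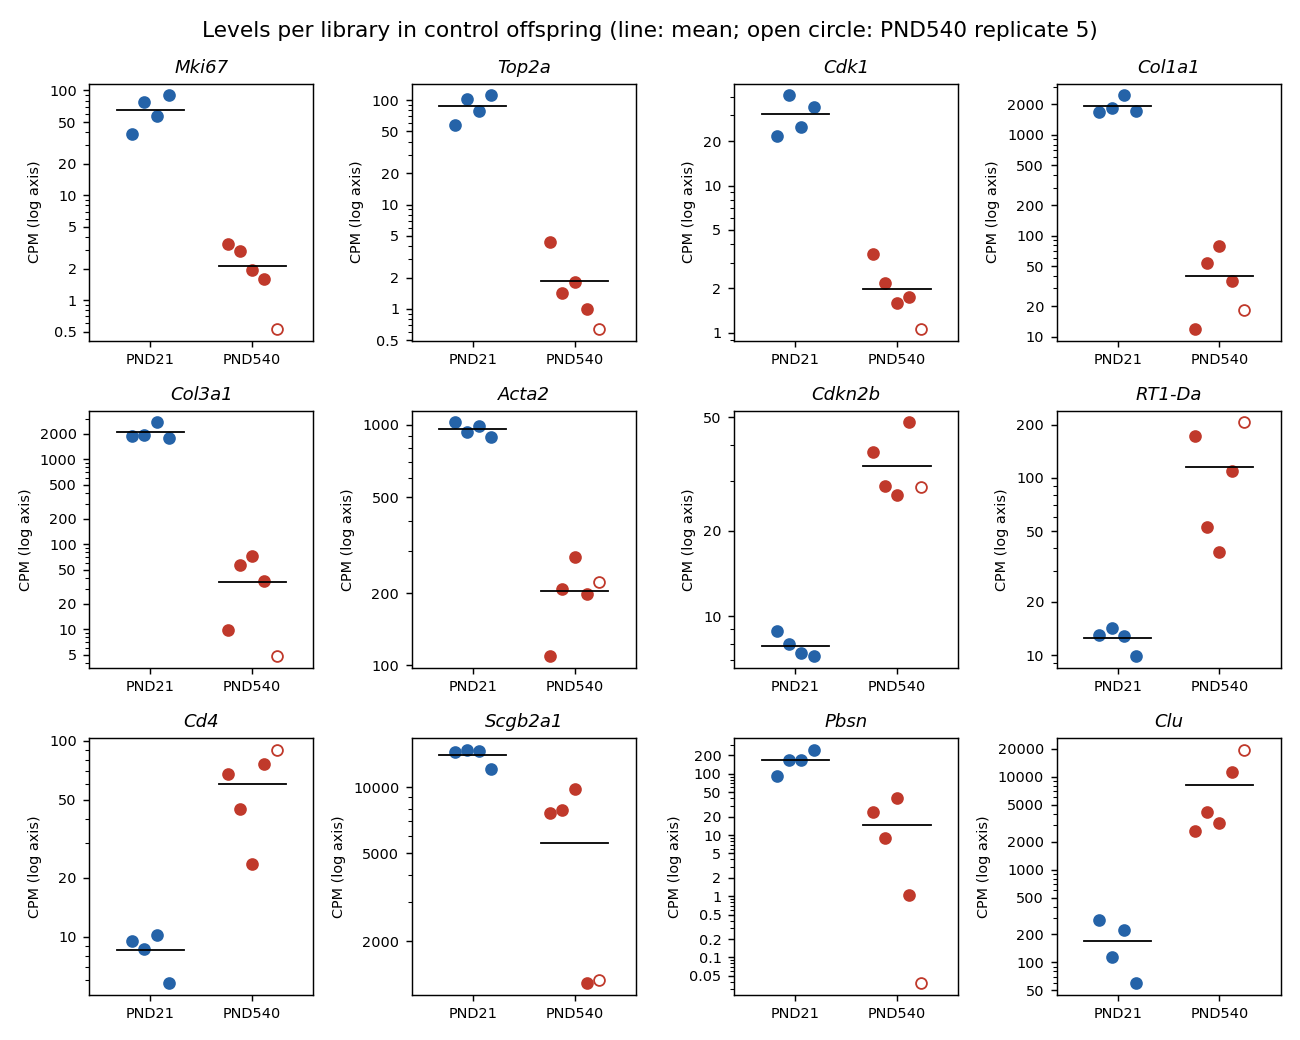
CPM of 12 genes in each of the 4 PND21 (blue) and 5 PND540 libraries (red, replicate 5 open) on log axes; lines are means. Division genes, collagens and Acta2 lie lower in every PND540 library and Cdkn2b, RT1-Da, Cd4 and Clu higher, while Scgb2a1 and Pbsn are lowest in replicates 4 and 5.

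Genes of the extracellular matrix fell. Of 32 listed collagens, 31 are in both tables and 29 were tested; 21 were lower and 2, Col1a2 and Col10a1, higher, with a median log2 fold change of -2.42 (17 to 22 lower and 0 to 2 higher when 1 library was left out). Elastic fibre and crosslinking genes had 19 of 28 lower and 1, Ltbp2, higher, with a median of -1.75, and proteoglycans and matricellular proteins 17 of 26 lower and 2, Spp1 and Lama5, higher (19 and 2 without replicate 5), with a median of -1.92. In bulk tissue, fewer fibroblasts and less RNA per fibroblast cannot be told apart.

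Col1a1, a chain of the main fibrillar collagen, stood at 1691, 1853, 2463 and 1708 CPM at PND21 and at 11.9, 53.6, 78.5, 35.2 and 18.4 CPM at PND540. Col3a1, the chain of reticular collagen, read 1869, 1913, 2709.6 and 1784 CPM and then 9.68, 56.9, 72.4, 36.6 and 4.82 CPM. Replicate 3 was the highest young library, and among the old ones replicates 1 and 5 were the lowest for both genes. The falls were 48.8-fold (log2 fold change -5.61, SE 0.56, adjusted p = 8.13e-05) and 57.3-fold (log2 fold change -5.84, SE 0.78, adjusted p = 0.000426; edgeR). Col1a2, whose product joins that of Col1a1 in the same triple helix, went the other way: 10 counts over the 4 PND21 libraries and 1.54, 5.55, 9.18, 4.73 and 0.228 CPM at PND540 (log2 fold change 5.67, SE 1.05, adjusted p = 0.00271). It was named after its values were seen, and it is among the genes near 0 in the PND21 table.

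Basement membrane and crosslinking genes followed Col1a1. Col4a1 fell 10.9-fold from 406 ± 23.9 to 37.2 ± 19.3 CPM, and Sparc, a collagen-binding matricellular protein, 9.93-fold from 1053 ± 135 to 106 ± 46.4 CPM. Periostin (Postn) stood at 109.6, 127, 166 and 112 CPM and then 1.67, 5.45, 5.06, 6.88 and 1.06 CPM, 31.8-fold lower (log2 fold change -4.99, SE 0.54, adjusted p = 0.000117, edgeR), without overlap. Serpinh1, the chaperone that folds collagen in the endoplasmic reticulum, fell 5.6-fold from 199 ± 13.5 to 35.4 ± 10.6 CPM, and fibrillin 1 (Fbn1) 12.8-fold from 299 ± 79.9 to 23.3 ± 11.1 CPM. Matrix proteases split: of 28 tested, 6 were higher and 10 lower, beside 17.3% and 13.2% of all genes. Leaving out 1 library gave 6 to 12 lower, 6 without replicate 1, 2 or 3 at PND21. Without replicate 5 at PND540 12 were lower, beside 23% of all genes. The membrane protease Mmp14 fell 4.01-fold, from 60.3 ± 4.65 to 15 ± 5.26 CPM. Mmp12, the elastase of macrophages, rose from 0.844, 0.307, 0.586 and 0.649 CPM to 23.6, 23.4, 13.2, 77.2 and 15.9 CPM, 51.1-fold (log2 fold change 5.68, SE 0.67, adjusted p = 0.000213) or 31.1-fold without replicate 4 at PND540.

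Part of the contractile and endothelial genes also fell. Of 18 smooth muscle genes, all tested, 9 were lower and none higher, with a median log2 fold change of -1.20; without replicate 5 at PND540 13 were lower and 3 higher. Acta2, the smooth muscle actin, stood at 1022, 937, 988 and 889.9 CPM and then 109, 209, 283, 198 and 223 CPM, and the smooth muscle myosin Myh11 at 1187, 1109, 1171 and 1104 CPM and then 124, 322, 362, 337 and 269 CPM. Replicate 1 was the lowest old library for both and no old library reached a young one; the falls were 4.69-fold (log2 fold change -2.23, SE 0.25, adjusted p = 0.000156) and 4.04-fold (log2 fold change -2.01, SE 0.29, adjusted p = 0.000611; edgeR). Of 23 tested endothelial genes 11 were lower and 1 higher (7 lower without replicate 1 or 2 at PND21, 16 without replicate 5 at PND540), among them the VEGF receptor Kdr (3.21-fold lower, from 13.8 ± 2.09 to 4.29 ± 1.32 CPM) and the apelin receptor Aplnr (4.90-fold lower, from 11.9 ± 3.35 to 2.42 ± 0.809 CPM). The exception, the tight junction gene Cldn5, had 0 counts in each PND21 library and 3.54, 6.27, 10.2, 7.40 and 39.5 CPM at PND540, at least 140-fold higher against the floor and highest in replicate 5. The summed level of the 5 fibroblast markers ran from 3876 to 5719 CPM at PND21 and from 63.5 to 426 CPM at PND540, and that of the endothelial markers Cdh5 and Kdr from 49.2 to 60.1 and from 2.85 to 16.4 CPM. Their part in these results was not tested.

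Of 19 tested Schwann cell and nerve genes 3 were higher and 4 lower, beside 17.3% and 13.2% of all genes (6 higher without replicate 1 and 7 lower without replicate 5 at PND540). Sox10, the glial transcription factor, fell 4.57-fold, from 3.16 ± 0.692 to 0.687 ± 0.256 CPM, and the adhesion gene Ncam1 rose 5.01-fold, from 4.67 ± 0.607 to 23.4 ± 4.01 CPM. Of 18 tested adipocyte genes 3 were higher and none lower, beside 17.3% and 13.2% of all genes, and 1 was higher without replicate 1, 2 or 3 at PND21 or replicate 2 or 4 at PND540. Adipoq, the fat cell hormone adiponectin, read 2.72, 4.46, 3.88 and 15.4 CPM and 0.813, 80.9, 8.55, 18.1 and 19.3 CPM and was not called (adjusted p = 0.185, edgeR). Replicate 2 at PND540 held the highest Adipoq level and replicate 1 the lowest. The summed fat markers Adipoq, Plin1 and Cidec ran from 5.03 to 37.2 CPM at PND21 and from 1.14 to 131 CPM at PND540, and their part in other values was not tested.

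**Figure D3:**
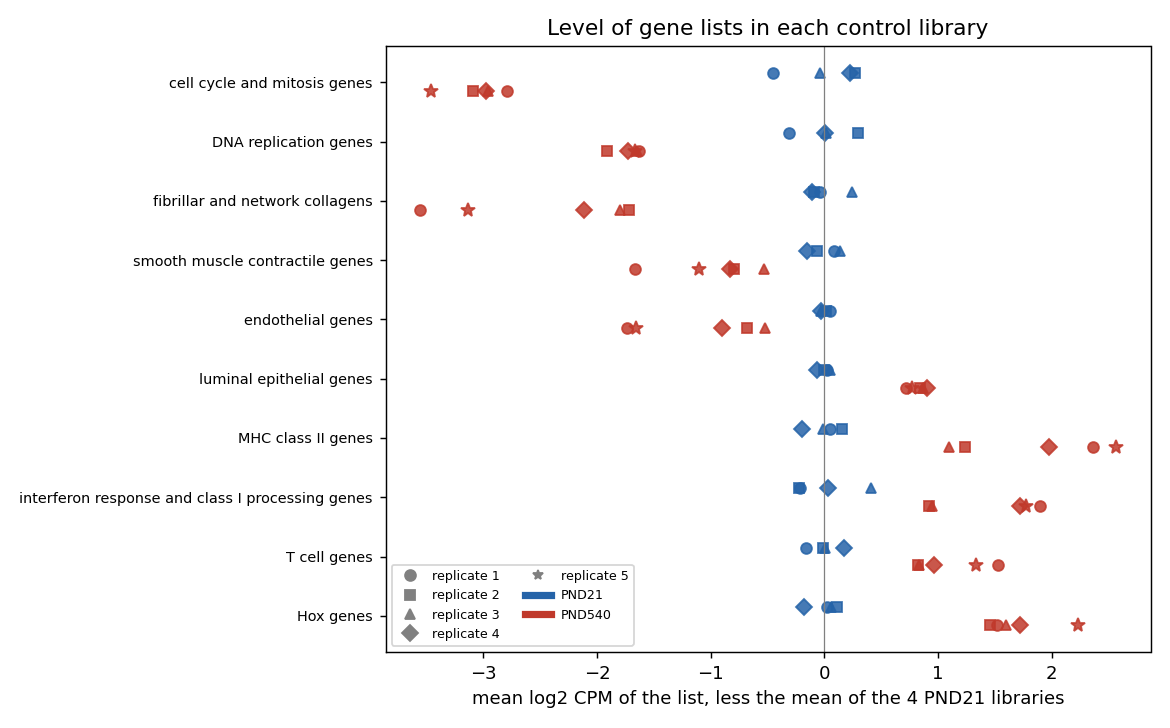
Mean log2 CPM over the tested members of 10 gene lists in each library, less the mean of the 4 PND21 libraries (x axis); blue is PND21, red PND540, and the marker shape gives the replicate number, which pairs no animals across ages. Mitosis genes lie between -3.46 and -2.79 in the 5 PND540 libraries and collagens between -3.55 and -1.72, while MHC class II genes lie between 1.09 and 2.56.

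Secretory genes of the luminal cells moved in both directions. Of 24 listed secretory genes 19 are in both tables and 13 were tested; 2 were higher and 4 lower, where 17.3% and 13.2% of all genes were, with 2 lower without any 1 young library or replicate 1 at PND540, and 4 higher without replicate 4 at PND21 or replicate 5 at PND540. The secretoglobins, small secreted proteins to which the lobe's main product prostatein belongs, were abundant at both ages. Scgb1d2, which the naming rule did not take and which was chosen after its values were seen, was at 36471, 34708, 35057 and 28573 CPM and then 45504, 42022, 65130.4, 12558 and 44979.7 CPM and was not called (adjusted p = 0.584, edgeR). Scgb2a2 rose from 279, 287, 298 and 364 CPM to 21630.1, 21003, 32001, 9197 and 18702 CPM, 66.8-fold (log2 fold change 6.06, SE 0.43, adjusted p = 1.05e-05). Scgb2a1 was lower in every old library, at 7646, 7899, 9803, 1287 and 1325 CPM after 14396, 14816, 14677 and 12118 CPM, but the difference did not pass the test (adjusted p = 0.124). Replicates 4 and 5 were about as low as each other for Scgb2a1, far under replicates 1, 2 and 3.

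Clu, the secreted chaperone clusterin that is known to rise in the gland when androgens are withdrawn, stood at 288, 113, 225 and 59.8 CPM and then 2574, 4187, 3176, 11243 and 19568 CPM. It was highest in replicates 4 and 5 and rose 47.5-fold (log2 fold change 5.57, SE 0.86, adjusted p = 0.000977, edgeR), or 30.7-fold without replicate 5. Probasin (Pbsn), a strictly androgen-dependent secretory gene, went from 91.3, 168, 169.6 and 249 CPM to 23.8, 8.89, 39.9, 1.06 and 0.0380 CPM, with replicates 4 and 5 again at the low end. Its fall of 11.5-fold had an adjusted p of 0.0461 (edgeR). That p was 0.00872 without replicate 5 and 0.0347 (20.1-fold) without replicate 3 at PND540, and between 0.0692 and 0.102 without any other single library. Msmb and Semg1, the latter on the list of seminal vesicle and dorsolateral prostate genes, were also lowest in replicates 4 and 5 of the old group. Msmb read 313, 138, 307, 27.1 and 0.266 CPM and Semg1 1844, 871, 3252, 194 and 1.14 CPM. Neither was called. Replicate 4 at PND21 held their highest young level, and the young values were 0.531, 0.0615, 0 and 57.3 CPM for Msmb and 3.50, 5.38, 7.72 and 192 CPM for Semg1.

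The most abundant changes included genes outside the lists, chosen after their values were seen. Zg16b, a secreted lectin-like protein gene, rose from 587, 752, 811 and 715 CPM to 13072, 30113, 40093, 5319 and 9564 CPM, 27.4-fold (log2 fold change 4.78, SE 0.65, adjusted p = 0.000476, edgeR). Lao1, an L-amino acid oxidase gene, fell from 29679.8, 20304, 14119 and 17464 CPM to 4810.4, 1447, 946, 1210.3 and 3643 CPM, 8.46-fold (log2 fold change -3.08, SE 0.53, adjusted p = 0.00186). S100a6, a calcium-binding protein, rose 8.70-fold from 482 ± 182 to 4198 ± 3083 CPM. Each of the 3 had groups that did not overlap. Pigr, the receptor that carries IgA across the epithelium, was very even within each age, at 2917, 3558, 3018 and 3074 CPM and then 1229, 1258, 1177, 1319 and 1259 CPM, 2.52-fold lower (log2 fold change -1.33, SE 0.16, adjusted p = 0.000245). Acpp, prostatic acid phosphatase and also chosen after its values were seen, fell 2.69-fold from 122 ± 10.1 to 45.5 ± 21.8 CPM (adjusted p = 0.0294, or 0.0543 to 0.0714 without replicate 1, 2, 3 or 4 at PND21 or replicate 1 or 3 at PND540). Andpro, an androgen-regulated secretory protein gene chosen in the same way, varied widely within each age, at 9.62, 956, 3101 and 12.5 CPM and 94.8, 4629, 18911, 74.2 and 167 CPM, and was not called (adjusted p = 0.429).

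Several keratin and junction genes of the luminal epithelium rose. Of 24 listed, 23 were tested and 9 were higher and 1, Prom1, lower, beside 17.3% and 13.2% of all genes. Without any 1 young library 4 or 5 were higher. Without replicate 5 at PND540 14 were higher, beside 26% of all genes. Krt7, a keratin of simple epithelia, went from 17.2, 12.1, 14.1 and 8.73 CPM to 85.3, 111, 66.9, 162 and 350.4 CPM, 11.9-fold (log2 fold change 3.57, SE 0.53, adjusted p = 0.000776). No old library overlapped a young one, and replicate 5 was the highest. The general luminal keratin Krt8 rose 2.00-fold (adjusted p = 0.0343; 0.0717 without replicate 1 and 0.0996 without replicate 4 at PND21, 0.0716 and 0.0954 without replicate 2 and 3, and 0.0607 without replicate 4 at PND540), and 0.68 on the log2 scale without replicate 5. Hoxb13, the homeobox gene of the caudal gut and prostate, did not pass the test, at 475 ± 34.4 and 523 ± 93.2 CPM. Of 19 tested basal genes 2 were higher and 2 lower, beside 17.3% and 13.2% of all genes (0 or 1 higher without any 1 young library, 4 higher and 5 lower without replicate 5 at PND540, 4 lower without replicate 4). Tp63, the basal cell master gene, stood at 22.3 ± 2.61 and 19.5 ± 6.24 CPM without a call.

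Of 22 tested hormone receptors and steroid enzymes 4 were higher and 4 lower, shares near the 17.3% and 13.2% of all genes (2 lower without replicate 2, 3 or 4 at PND21 or replicate 2 or 3 at PND540, 6 without replicate 5). Srd5a2, which turns testosterone into dihydrotestosterone, was lower in every old library, at 1.67, 6.17, 6.92, 2.04 and 0.152 CPM after 11.4, 13.9, 12.4 and 15.2 CPM, with an adjusted p of 0.0709 and of 0.0108 without replicate 5. Of 24 androgen-responsive genes, all tested, 5 were higher and 3 lower, shares again near those of all genes. There were 2 higher without replicate 2 or 4 at PND21, and 1 lower without any 1 young library or replicate 3 or 4 at PND540. Without replicate 5 at PND540 it was 9 higher and 4 lower, beside 26% and 23% of all genes. Zbtb16, a transcription repressor induced by androgens and by glucocorticoids, rose from 68, 59.9, 82.3 and 82.7 CPM to 298, 478, 438, 499 and 247 CPM, 5.35-fold (log2 fold change 2.42, SE 0.26, adjusted p = 0.000112), and Eaf2, a partner of elongation factors, rose 2.81-fold from 68.4 ± 7.93 to 192 ± 59.8 CPM. Of 23 tested zinc, citrate and metallothionein genes 4 were higher and none lower (4 and 3 without replicate 5), beside 17.3% and 13.2% of all genes, with a median log2 fold change of 0.12 that was -0.08 without replicate 5. The zinc exporter gene Slc30a2 rose 21.1-fold, from 4.97, 7.84, 3.03 and 12.2 CPM to 139.9, 89.6, 110.3, 194 and 207 CPM with an adjusted p of 0.000117 (log2 4.40, SE 0.47), in a gland that handles zinc and citrate.

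Most class II antigen presentation genes rose, and a pair of promoters is shown for the same reason as those above. Capitals mark only the CCAAT box in RT1-Da, whose product is a chain of the class II molecule, and in B2m, the light chain of class I, the interferon-stimulated response element letters (GAAANNGAA). Both lines give 150 bases before the RefSeq start in GRCr8. In the same window Cd74 held no CCAAT box and Psmb9 no GAAANNGAA letters, so the pair does not stand for all members.
RT1-Da, chr20:4515265-4515414, plus strand: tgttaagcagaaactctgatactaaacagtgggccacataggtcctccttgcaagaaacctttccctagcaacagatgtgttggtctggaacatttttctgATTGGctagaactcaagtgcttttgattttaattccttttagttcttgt
B2m, chr3:129549180-129549329, plus strand: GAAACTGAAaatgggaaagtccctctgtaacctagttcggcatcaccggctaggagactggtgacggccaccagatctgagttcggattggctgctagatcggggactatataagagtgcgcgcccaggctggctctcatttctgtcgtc
CCAAT stood in 9 of the 11 class II genes with a promoter (81.8%, against 34.4% of all promoters). GAAANNGAA stood in 18 of 30 interferon and class I genes (60%, against 7.99%). Among the genes called higher, CCAAT stood in 7 of 8 class II genes (87.5%). GAAANNGAA stood in 9 of 18 interferon and class I genes called higher (50%), a smaller share than in the whole list. Both strands were read, and a match is not a site.

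Of 15 class II genes, 14 were tested, and 10 were higher and 1 lower (8 to 10 higher when 1 library was left out), with a median log2 fold change of 1.92. RT1-Da stood at 12.9, 14.2, 12.9 and 9.87 CPM and then 173, 52.9, 38.1, 109.6 and 206 CPM, 9.29-fold higher (log2 fold change 3.22, SE 0.51, adjusted p = 0.00119, edgeR). Cd74, the invariant chain that escorts class II, read 42.7, 46.6, 42.7 and 35.8 CPM and then 653, 186, 139.6, 411 and 1484 CPM, 13.7-fold higher (log2 fold change 3.78, SE 0.70, adjusted p = 0.00269), or 8.24-fold without replicate 5. Replicates 1, 4 and 5 were the higher old libraries for both, and replicates 2 and 3 the lower. Rfx5, a factor that binds class II promoters and was named after its values were seen, was the member that fell, from 47.2 ± 3.70 to 26.4 ± 2.93 CPM. Of 36 tested interferon and class I genes 19 were higher and none lower; 12 were higher without replicate 1 or 2 at PND21 and 21 without replicate 5 at PND540. B2m rose from 252, 256, 296 and 302 CPM to 887, 497, 490.4, 861 and 796 CPM, 2.55-fold (log2 fold change 1.35, SE 0.24, adjusted p = 0.00195), and Nlrc5, the activator of class I genes, 3.50-fold from 4.68 ± 0.191 to 16.4 ± 5.63 CPM. Psme1, a proteasome activator subunit, had the largest log2 difference of the list (5.50) with 4.75, 4.30, 4.24 and 4.09 CPM at PND21, the same even and low pattern as Rps18.

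Some T cell genes rose from low levels. Of 36 listed T cell genes 26 were tested, and 11 were higher and none lower, beside 17.3% and 13.2% of all genes. Leaving out 1 library gave 6 to 11 higher (7 without replicate 1 or 3 at PND21, 6 without replicate 1 at PND540). Only 8 of the 26 had at least 1 CPM at both ages. Of these 8, 2 were higher and none lower, beside 14.5% and 11% of such genes. Cd3e, a chain of the T cell receptor complex, read 0.125, 0.461, 0.261 and 0.195 CPM and then 3.33, 1.58, 1.06, 1.35 and 4.18 CPM, 8.67-fold higher (log2 fold change 3.12, SE 0.58, adjusted p = 0.00281, edgeR), and Cd4, carried by helper T cells and macrophages, 9.56, 8.73, 10.3 and 5.81 CPM and then 68.2, 45, 23.5, 76.2 and 90.3 CPM, 7.05-fold higher (log2 fold change 2.82, SE 0.40, adjusted p = 0.000568). Both were higher in every old library. Jchain, which links the chains of secreted IgA and marks plasma cells, went from 0.125, 0.461, 0.163 and 0.487 CPM to 64.8, 2.85, 2.03, 11.7 and 2.96 CPM, 53.8-fold, or 15.7-fold without replicate 1, which alone held 64.8 CPM. The pan-leukocyte gene Ptprc was not called, at 5.80 ± 0.413 and 10.0 ± 6.66 CPM (adjusted p = 0.328, and 0.0118 without replicate 5).

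Among myeloid genes 16 of 32 tested were higher and 5 lower. The lower ones were Mcpt1, Cpa3, Cma1, Tpsab1 and the macrophage gene Mrc1, and the higher ones included the mast cell receptor gene Kit. Lyz2, the lysozyme of macrophages, went from 21.7, 17.4, 21.4 and 13.9 CPM to 128, 184, 88.1, 217 and 66.5 CPM, 7.36-fold (log2 fold change 2.88, SE 0.38, adjusted p = 0.000374, edgeR), and Gpnmb, a gene of lipid-laden and phagocytic macrophages, from 6.47, 6.09, 8.05 and 6.27 CPM to 25.7, 53.1, 42.0, 192 and 49.7 CPM, 10.8-fold, or 6.18-fold without replicate 4 at PND540. Mast cell protease genes went the other way: Cma1 fell 3.17-fold from 15.3 ± 3.85 to 4.84 ± 2.21 CPM, Cpa3 6.37-fold from 21.7 ± 4.60 to 3.40 ± 3.05 CPM (9.87-fold without replicate 2 at PND540), and both were named after their values were seen. The summed T cell markers ran from 1.79 to 2.18 CPM at PND21 and from 3.41 to 10.4 CPM at PND540, and the summed macrophage markers (Cd68, Csf1r, C1qa) from 44.7 to 68.1 and from 65.1 to 257 CPM, so the latter overlapped. Their part in the class II and interferon values was not tested.

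Some secreted signals of inflammation were higher. Of 30 tested chemokines and cytokines 14 were higher and 1, Ccl6, lower, beside 17.3% and 13.2% of all genes. But 5 to 9 were higher without any 1 of the young libraries or of replicates 1, 3 and 4 at PND540. Limited to the 16 members with at least 1 CPM at both ages, 4 were higher and 1 lower, beside 14.5% and 11% of such genes. The median log2 fold change was 0.04 over these 16 and 1.00 over the 30. Il1rn, the antagonist of the interleukin 1 receptor, went from 0.406, 0.584, 0.456 and 0.487 CPM to 8.94, 6.33, 4.52, 24.6 and 17.9 CPM, 25.6-fold (log2 fold change 4.68, SE 0.58, adjusted p = 0.000286, edgeR). Cx3cl1, the membrane-bound chemokine fractalkine, went from 56.6, 47.8, 39.4 and 37.0 CPM to 146, 160.5, 169, 331 and 402 CPM, 5.35-fold (log2 fold change 2.42, SE 0.36, adjusted p = 0.000808). Replicates 4 and 5, low in Scgb2a1 and Pbsn, were the highest for Cx3cl1. Of 26 tested complement genes 10 were higher and 1, the receptor gene C5ar1, lower, beside 17.3% and 13.2% of all genes. Without replicate 5 it was 12 and 2, beside 26% and 23% of all genes. Masp1, a protease of the lectin pathway, rose from 3.37, 2.27, 2.87 and 2.18 CPM to 48.6, 36.5, 46.3, 92.4 and 75.6 CPM, 22.4-fold (log2 fold change 4.48, SE 0.35, adjusted p = 1.81e-05), whereas C3, the central component, was not called, at 8.64 ± 1.79 and 6.98 ± 2.08 CPM with overlapping groups.

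Ubd, a ubiquitin-like modifier induced by interferon and tumour necrosis factor, was among the 10 largest rises at 1 CPM or more at both ages. It read 7.00, 0.953, 4.66 and 0.390 CPM at PND21 and 120.2, 122, 73.6, 321 and 376 CPM at PND540. The rule that named it asked for groups without overlap. Its level was 62.2-fold higher (log2 fold change 5.96, SE 0.98, adjusted p = 0.00139, edgeR), or 101-fold without replicate 1 at PND21. Replicates 4 and 5 were the highest old libraries, and replicates 2 and 4 the lowest young ones.

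Some signals of ductal growth fell. Of 33 tested branching and patterning genes 9 were lower and 2, Bmp2 and Eya2, higher, beside 13.2% and 17.3% of all genes. Without replicate 5 at PND540 14 were lower, beside 23% of all genes. Fgf10, the growth factor with which the stroma drives budding, stood at 8.94, 8.98, 9.42 and 10.0 CPM and then 0.0813, 1.21, 0.333, 0.545 and 0 CPM, 20.9-fold lower (log2 fold change -4.38, SE 0.79, adjusted p = 0.0024, edgeR), or 36.6-fold without replicate 2 at PND540. Gli1 and Hhip, stromal targets of Hedgehog signalling, fell 4.98-fold (from 22.9 ± 2.80 to 4.59 ± 2.17 CPM) and 6.73-fold (from 11.0 ± 0.830 to 1.63 ± 0.893 CPM). The ligand Shh itself was not called, at 2.37, 1.54, 3.75 and 3.15 CPM and 4.59, 5.97, 3.56, 4.13 and 0 CPM, with 0 counts in replicate 5. Every old library was below every young one for Fgf10, Gli1 and Hhip.

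Wnt and Notch genes were 11 lower and 4 higher of 39 tested, beside 13.2% and 17.3% of all genes. There were 6 or 7 lower without replicate 2, 3 or 4 at PND21. Without replicate 5 at PND540 16 were lower, beside 23% of all genes. The receptor Fzd7 fell from 16.8, 18.3, 14.9 and 22.7 CPM to 0.0407, 0.0328, 0.200, 0.201 and 0.456 CPM, 95.9-fold (log2 fold change -6.58, SE 0.58, adjusted p = 3.59e-05, edgeR), and the secreted antagonist Sfrp2 6.61-fold from 54.3 ± 4.03 to 8.22 ± 4.30 CPM. The members that rose included Rspo2, a secreted amplifier of Wnt signals, at 1.34, 0.769, 1.95 and 1.07 CPM and then 66.6, 56.9, 35.8, 53.7 and 15.8 CPM, 35.5-fold (log2 fold change 5.15, SE 0.50, adjusted p = 6.7e-05), and Wnt9a, at 1.97, 1.41, 2.22 and 2.01 CPM and then 14.0, 13.6, 14.8, 13.8 and 15.2 CPM, 7.50-fold (log2 fold change 2.91, SE 0.21, adjusted p = 1.16e-05). Wnt9a was almost the same in all 5 old libraries, replicate 5 included.

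Some genes of fetal and early postnatal growth were lower. Dlk1, an imprinted Notch-like regulator of immature cells and near 0 at PND540 with 7 counts over its 5 libraries, had 3.78, 7.81, 6.68 and 6.33 CPM at PND21 and 0.0813, 0.0656, 0.0333, 0.0573 and 0 CPM at PND540, 119-fold lower (log2 fold change -6.89, SE 0.50, adjusted p = 1.18e-05, edgeR). Igf2bp2, which binds the mRNA of Igf2, fell 16.3-fold from 4.70 ± 0.284 to 0.285 ± 0.154 CPM. The receptor Igf1r went the other way, from 9.41, 9.59, 12.6 and 13.1 CPM to 33.7, 51.7, 53.2, 61.5 and 32.1 CPM, 4.16-fold higher (log2 fold change 2.06, SE 0.25, adjusted p = 0.000266), without overlap. Its ligand Igf1 was not called, at 4.66 ± 0.924 and 11.7 ± 9.07 CPM (adjusted p = 0.116, and 0.0244 without replicate 5). Of 26 tested genes of the insulin-like growth factor pathway 3 were higher and 5 lower, beside 17.3% and 13.2% of all genes. Without replicate 5 it was 5 and 8, beside 26% and 23% of all genes.

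Hox genes, which keep the positional identity of the urogenital tract, were higher or not called. Of 35 listed, 31 are in both tables and 19 were tested; 10 were higher and none lower (9 to 11 when 1 library was left out), with a median log2 fold change of 1.35 over the 19 and 0.92 over the 14 with at least 1 CPM at both ages. Hoxd8 rose from 4.53, 4.06, 3.88 and 3.344 CPM to 17.2, 17.3, 18.0, 21.5 and 28.7 CPM, 5.19-fold (log2 fold change 2.38, SE 0.23, adjusted p = 6e-05, edgeR). Hoxc6, near 0 at PND21, had 12 counts over the young libraries and 13.9, 13.1, 12.1, 13.8 and 11.3 CPM at PND540, and Hoxc4, its neighbour in the same cluster, 0.156, 0.215, 0.0652 and 0.0649 CPM and then 6.59, 5.15, 7.88, 6.71 and 6.27 CPM. Both were even at PND540, and at most 0.215 CPM in any young library. Chromatin genes were mixed, with 10 of 35 tested higher and 4 lower (17 and 9 without replicate 5), beside 17.3% and 13.2% of all genes (26% and 23% without replicate 5). Ezh2, the polycomb methyltransferase, fell 3.48-fold from 23.8 ± 4.29 to 6.83 ± 1.91 CPM.

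**Figure D4:**
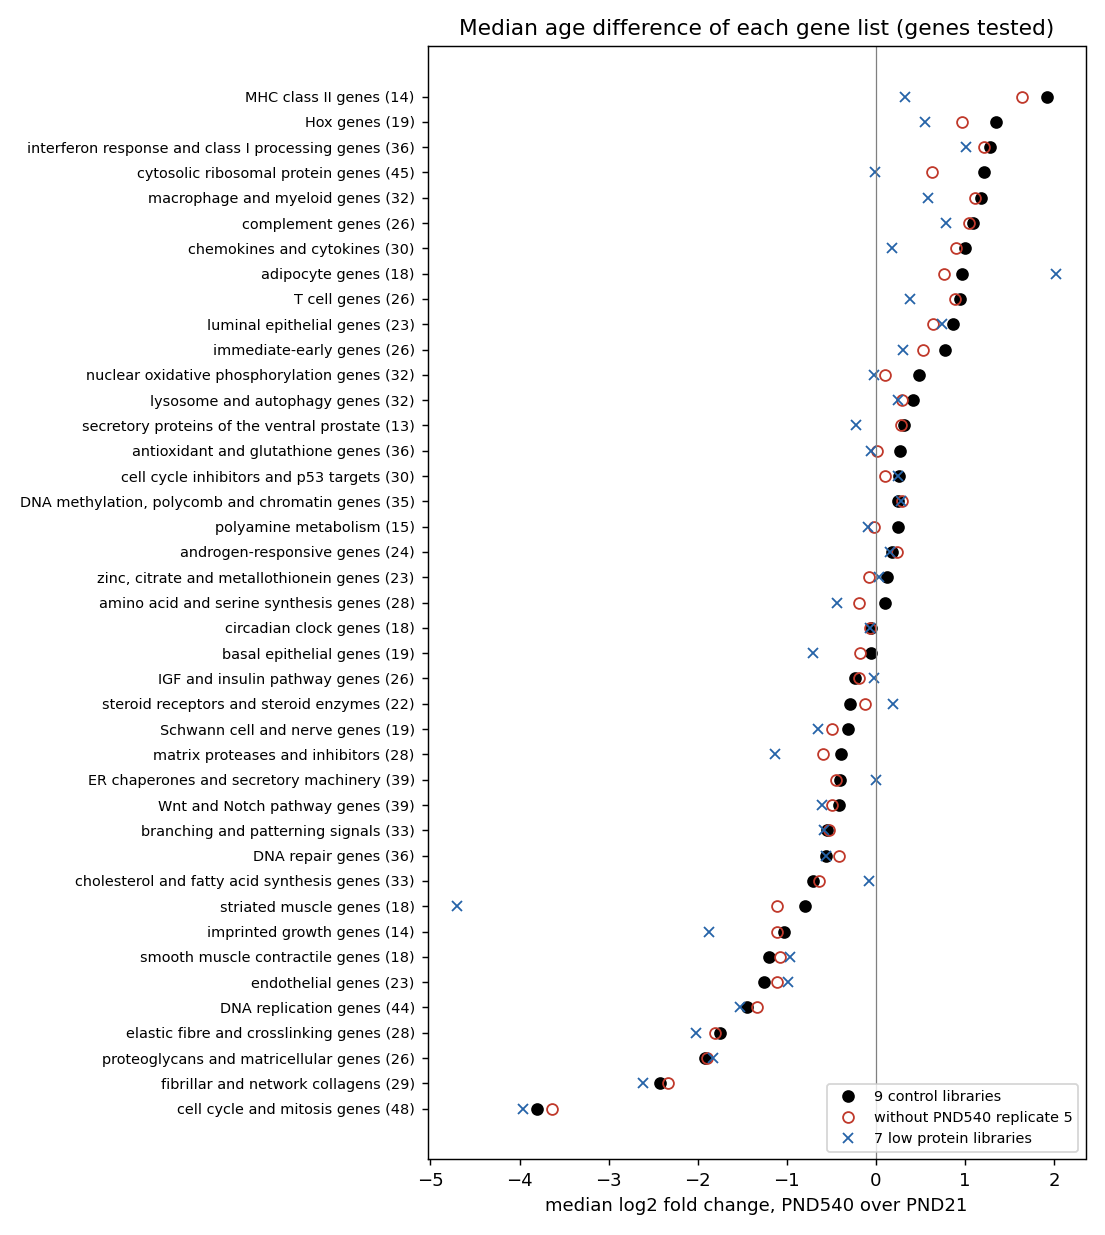
Median log2 fold change (PND540 over PND21) over the tested members of the 41 lists with at least 10 tested genes, numbers in parentheses; filled circles are the 9 control libraries, open circles leave out PND540 replicate 5 and crosses are the 7 GLLP libraries. Mitosis genes are lowest at -3.80, and MHC class II genes stand at 1.92, 1.64 without replicate 5 and 0.32 in GLLP.

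Many ribosomal protein genes rose. Of 48 listed, 45 were tested, and 25 were higher and 1, Rps9, lower (16 higher without replicate 4 at PND21, 39 without replicate 5 at PND540). Their median log2 fold change was 1.22, and 0.63 without replicate 5 and -0.01 in GLLP. Rpl31, a protein of the large subunit, read 62.6, 64.0, 63.9 and 60.1 CPM and then 373, 302, 311, 336 and 391 CPM, 5.47-fold higher (log2 fold change 2.45, SE 0.15, adjusted p = 4.63e-06, edgeR). Nuclear genes of oxidative phosphorylation gave 1 call among 32 tested, higher, and 0 to 4 when 1 library was left out. Lysosome and autophagy genes had 7 of 32 higher and none lower (14 and 3 without replicate 5), beside 17.3% and 13.2% of all genes (26% and 23% without replicate 5), with Ctsb, a lysosomal protease, at 245, 210.3, 249.6 and 200.04 CPM and then 401, 459.7, 473, 576 and 1027 CPM, 2.60-fold higher (log2 fold change 1.38, SE 0.29, adjusted p = 0.00533).

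Lipid synthesis was lower in part. Of 33 genes of cholesterol and fatty acid synthesis, all tested, 9 were lower and 1, Elovl6, near 0 at PND21, higher, beside 13.2% and 17.3% of all genes. There were 3 to 5 lower without any 1 young library or replicate 3 at PND540. Without replicate 5 13 were lower, beside 23% of all genes. Fasn, the fatty acid synthase, went from 902, 968, 637 and 1147 CPM to 504, 504, 444, 237 and 291 CPM, 2.31-fold lower (log2 fold change -1.21, SE 0.28, adjusted p = 0.00871, edgeR), and replicates 4 and 5 were the lowest. Of 36 tested glutathione and antioxidant genes 5 were higher and 5 lower, shares near the 17.3% and 13.2% of all genes. Without replicate 5 it was 8 and 10, beside 26% and 23% of all genes, and 3 were higher without replicate 4 at PND21. The secreted peroxidase Gpx3 rose 4.25-fold from 17.0 ± 2.03 to 72.1 ± 36.2 CPM. Gpx4, the peroxidase of membrane lipids, stepped from 0.250, 0.461, 0.195 and 0.260 CPM to 241, 195, 195, 149 and 719.8 CPM, and Gstm3, a glutathione transferase, from 42.1, 43.4, 48.4 and 35.9 CPM down to 0.976, 0.558, 0.566, 0.602 and 0.835 CPM. Gpx4 was higher by 1011-fold, or 653-fold without replicate 5, and Gstm3 lower by 60.1-fold, and neither had groups that overlapped.

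Some immediate-early stress genes were higher in the old gland. Of 26 immediate-early genes, all tested, 8 were higher and none lower, beside 17.3% and 13.2% of all genes (5 higher without replicate 2 or 3 at PND21). Without replicate 5 it was 9 higher and 1 lower, beside 26% and 23% of all genes. Klf6, a zinc finger factor of injury responses, rose from 10.5, 11.0, 14.1 and 13.7 CPM to 70.1, 96.6, 106, 137 and 103 CPM, 8.32-fold (log2 fold change 3.06, SE 0.23, adjusted p = 1.38e-05, edgeR), and Atf3, a stress-induced factor, from 5.59, 4.64, 9.35 and 5.32 CPM to 19.9, 22.0, 16.4, 31.3 and 56.4 CPM, 4.68-fold (log2 fold change 2.23, SE 0.41, adjusted p = 0.00263). Of 18 tested clock genes 4 were higher and 1, Cry1, lower, beside 17.3% and 13.2% of all genes, with a median log2 fold change of -0.06. Nr1d1, a repressor in the circadian clock, read 25.7, 30.8, 22.1, 106 and 96.8 CPM at PND540, high in replicates 4 and 5, after 12.8, 9.71, 16.6 and 11.3 CPM; it rose 4.46-fold (adjusted p = 0.0125). The labels give no time of day of collection.

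The GLLP libraries showed most of the same calls. In them 2611 genes were higher (19.1%) and 2341 lower (17.1%) of 13694 tested. Of the 2294 genes higher in CTR that were tested in GLLP, 1699 (74.1%) were also called higher there, which is 66.3% of the GLLP calls tested in CTR; for lower genes it was 1421 of 1756 (80.9%), which is 63.7%. These are different animals counted in the same tables, so the annotations are common to both contrasts. Mki67, Col1a1 and Acta2 had log2 fold changes of -4.84, -5.53 and -2.21 in GLLP, beside -4.97, -5.61 and -2.23 in CTR. Of the 14 class II genes 5 were higher and 2 lower in GLLP. RT1-Da was at 1.56 in GLLP and 3.22 in CTR, a difference that did not pass the interaction test (adjusted p = 0.738, edgeR). In GLLP 5 of 26 T cell genes were higher and 2 lower, and 4 of 32 chemokines and cytokines higher and 3 lower. Of 31 myeloid genes 10 were higher and 3 lower there, and of 36 interferon and class I genes 16 and none. No bladder lining gene of 7 tested was called in GLLP. These counts were not tested against those of CTR.

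**Figure D5:**
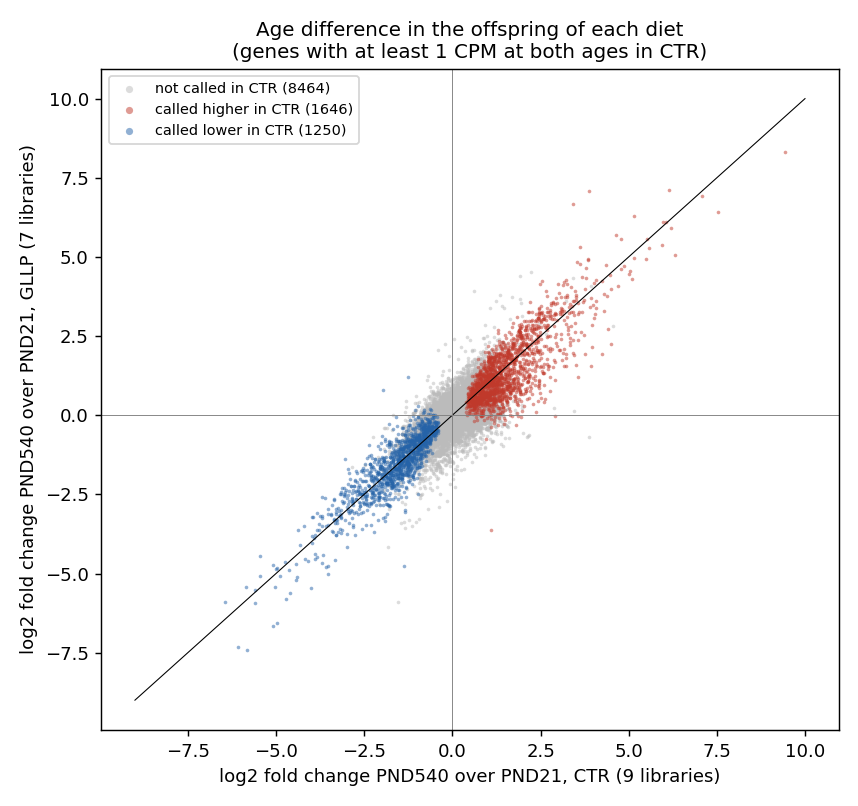
Log2 fold change of PND540 over PND21 in CTR (x axis) against GLLP (y axis) for the 11360 genes with at least 1 CPM at both ages in CTR; red and blue points are called higher (1646) and lower (1250) in CTR. Mylpf was called in opposite directions in the 2 diets.

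The age difference itself differed between the diets for 13 of 14178 genes (0.0917%, age by diet interaction, edgeR; 733 had an unadjusted p under 0.05). They were Actn2, Actn3, Ckm, Cox6a2, Eef1a2, Eno3, Mybpc1, Myh3, Myh4, Myl1, Mylpf, Them5 and Tnni2, most of them genes of skeletal muscle, and in each the log2 difference was lower in GLLP. Mylpf, a light chain of fast muscle myosin, read 3.31, 3.14, 3.36 and 2.50 CPM and 4.88, 5.09, 4.86, 6.05 and 11.9 CPM in CTR, 2.13-fold higher with an adjusted p of 0.0296 that was 0.0667 to 0.0915 without any 1 young library, but averaged 55.3 CPM in the young and 4.50 CPM in the old GLLP libraries. Mylpf and Eef1a2, an elongation factor of muscle and nerve, were the 2 genes called in opposite directions in the diets. Ckm was low in the control libraries at either age, with averages of 1.03 and 0.895 CPM, against 52.2 CPM in young GLLP libraries. Acta1, a skeletal actin gene that young control glands already carried at 328, 336, 417 and 357 CPM, fell 6.35-fold to 56.6 ± 18.0 CPM, a change of -2.67 on the log2 scale (adjusted p = 5.89e-05, edgeR), with Myh4 at no more than 3.25 CPM in the same libraries.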

How the data were processed

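Bulk RNA-seq counts of ventral prostate were used as the authors deposited them: whole-number counts per gene symbol, 1 table for PND21 (28688 entries, of which 25 date-like names were set aside) and 1 for PND540 (24218 entries). STAR, edgeR 3.34.0 and Rnor_6.0 are named, with no roles, per the submitters' processing notes; the counting tool, annotations and strand setting were not given in the sources used here. Reads of overlapping or near-identical genes may therefore be split.

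Shared symbols (19709) were filtered with filterByExpr, scaled by TMM and tested with edgeR 4.0.16 (R 4.3.3; robust quasi-likelihood fit, Benjamini-Hochberg adjusted p of at most 0.05) on the 9 control libraries, with 28748604 to 37587255 counts each. CPM values use TMM library sizes. SE is that of the log2 fold change. The same fit was run on the GLLP libraries, and an age by diet interaction on all 16. The code was tested on simulated data.

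Genes named are those with a mean of at least 1 CPM at both ages, at least 5 CPM at 1 age and no overlap that had the 10 largest folds and 5 smallest p in each direction; the 5 highest means among called genes near 0 at 1 age; the 4 smallest p of each list; and a set of fixed anchor genes. Others are marked in the text. The members and lists were chosen with earlier results of these data known. Alternatives covered scaling, filter, threshold, DESeq2 1.42.0, limma 3.58.1 (voom with sample weights), a joint fit, the replicate number as a block, and leaving out each library. Motifs were searched in the 250 bases before RefSeq gene starts (GRCr8). Figures were drawn with matplotlib 3.10.9.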

Additional observations from a re-analysis of the deposited data

Results flagged for a closer look

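In 358 groups of libraries (179 genes at 2 ages) 34 held a library whose gap to its nearest neighbour, as a share of the group's range, exceeded Dixon's 95% critical value for groups of 4 or 5. Chance flags about 1 in 20 groups. Replicate 5 at PND540 was the high one in 14: Rps18 (0.87), Psme1 (0.904), Fth1 (0.831), Rps29 (0.912), Fau (0.932), Krt18 (0.8285), Sfn (0.878), Oaz2 (0.72), Cldn5 (0.813), Cdkn1a (0.843), Gpx4 (0.84), Ctsb (0.721), Mylpf (0.831) and S100a6 (0.884). Among the other old libraries, replicate 4 stood high in Mmp12 (0.838) and Gpnmb (0.835), replicate 2 in Adipoq (0.769), replicate 1 in Jchain (0.846) and replicate 3 in Andpro (0.758) and Klk1c8 (0.931), and replicate 3 stood low in Krt4 (0.717).

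At PND21, replicate 4 stood high in Msmb (0.991), Semg1 (0.978), Adipoq (0.863) and Cdkn2a (0.84) and low in Scgb2a1 (0.844) and S100a6 (0.838). Replicate 3 stood high in Krt14 (0.845), Col3a1 (0.861) and Upk2 (1). Replicate 1 stood high in Fau (1, a single count) and low in Sfrp2 (0.907) and Psmb9 (0.933), and replicate 2 low in Rfx5 (0.846).

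The age difference differed between the diets by the interaction test for 13 genes. The log2 values, GLLP minus CTR, were -3.66 for Actn2, -5.66 for Actn3, -6.01 for Ckm, -5.48 for Cox6a2, -5.31 for Eef1a2, -2.56 for Eno3, -5.54 for Mybpc1, -5.7 for Myh3, -8.28 for Myh4, -8.17 for Myl1, -4.71 for Mylpf, -6.71 for Them5 and -6.31 for Tnni2. Young GLLP libraries held the high levels, with Myh4 at 125 to 298 CPM and Ckm at 40.7 to 66.2 CPM.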

How the results depend on the processing

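Genes called higher at PND540 in CTR numbered 2336, and 3835 with limma voom and sample weights, 1525 when only genes with at least 1 CPM at both ages were tested and 993 when tested against a 2-fold threshold. Genes called lower numbered 1781, and 3533, 1156 and 755 under the same settings. Both of the latter use fewer genes or a stricter null by construction; the cause of the voom counts was not tested. Leaving out 1 library at a time gave 1722 to 3490 higher and 1318 to 3085 lower, both highest without replicate 5 at PND540. Under the other scalings, filters and DESeq2 the counts stayed within 1.5 times (1944 to 2973 higher, 1778 to 2283 lower). Library size alone shifted the median of all genes by -0.11 log2. Replicate numbers did not pair the samples: same-numbered libraries of the ages had correlated deviations of 0.036, -0.26, 0.11 and 0.11, and none matched its own number best. With the number as a replicate block 3174 genes were higher and 2838 lower; number 5 exists only at PND540, so the block absorbs that library by construction. The age by diet interaction gave 13 genes, 46 with DESeq2 and 11 with the replicate block. Of 179 genes followed singly 156 were called, none reversed under any of these settings, and 34 lost the call at the 2-fold threshold. The secretory, basal, polyamine, zinc, kallikrein, circadian and amino acid lists, with medians between -0.06 and 0.40, changed the sign of that median under at least 1 setting, and the urothelial list went from 2.01 to -0.31 when only genes with at least 1 CPM at both ages were tested. The totals per library limit what can be said of genes with few counts.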
